A study of Mus musculus with 25 samples.

Results

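Interleukins are secreted signals by which immune and stromal cells direct each other, and their receptors are built from chains that several interleukins share. The genes described here are the 83 of 54752 genes in the files whose mouse symbol consists of Il, a number and optional further lower-case letters or digits, a rule that used no measured value. They comprise 36 ligands, 7 secreted antagonists, binding proteins or decoy receptors, and 38 receptor or receptor-like chains, plus *Il4i1*, which encodes an amino acid oxidase named after its induction by interleukin (IL)-4, and the antisense RNA gene *Il1bos*. All but *Il1bos* are protein coding.

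RNA was sequenced from epididymal (eWAT) and inguinal (iWAT) white adipose tissue of male C57BL/6N mice, 1 library per sample, to ask what a high-fat diet (HFD) and loss of *Acod1*, the gene of the enzyme that makes itaconate, change in fat. In eWAT there were 4 wild type mice on normal diet (ND), 5 wild type mice on HFD and 5 *Acod1*-/- mice on HFD, and in iWAT there were 3, 5 and 3. The HFD, with 60% of calories from fat, began at 5 weeks of age and lasted 16 weeks, although the labels of *Acod1*-/- iWAT samples 2 and 3 give 17 and 18 weeks. *Acod1*-/- mice (C57BL/6N-Acod1em1(IMPC)J/J) carry a whole-body deletion and came from heterozygous breeding with wild type littermates, and ND-fed *Acod1*-/- mice were not analysed here, so genotype was compared on HFD alone. Counts come from whole tissue, in which fewer cells of a type and less RNA per cell cannot be told apart.

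In lean fat, IL-33 acting through its receptor ST2 maintains regulatory T cells and group 2 innate lymphoid cells, and IL-4 and IL-13 act on macrophages through receptors that hold IL-4Rα or IL-13Rα1. In obesity macrophages gather in the tissue, and IL-1β, IL-6 and IL-18 are the interleukins most often named with its inflammation. Each of these arms has its own brake, such as the receptor antagonist encoded by *Il1rn*, the IL-18 binding protein, or decoy receptors that bind a ligand without passing a signal.

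Most interleukins themselves had few or no counts in these tissues, while most of their receptors passed the filter. Each library held between 31.4 M and 52.3 M counts on genes (megareads, M; median 42.1 M). A mean of 1 CPM (counts scaled to library size) over the libraries of a depot was required for testing, and 39 members passed in eWAT and 43 in iWAT, the latter being the same 39 plus *Il1r2*, *Il5ra*, *Il9r* and *Il12rb1*. Of 36 ligands 7 passed in either depot, namely *Il7*, *Il15*, *Il16*, *Il17d*, *Il18*, *Il33* and *Il34*, against 27 of 38 receptor chains in eWAT and 30 in iWAT. No read was counted in any of the 25 libraries for 8 members, *Il3*, *Il9*, *Il20*, *Il24*, *Il1f6*, *Il1f10*, *Il1rapl2* and *Il11ra2*. A member that passed only because 1 group was high had to differ between groups, so the members tested are not a sample of all 83.

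Per length of transcript, as the mean FPKM (fragments scaled to transcript length and library size) that the authors deposited, *Il6st*, the gp130 chain shared by the receptors of IL-6, IL-11 and IL-27, was high in every group, with means between 15.3 and 20.2 FPKM over the 6 groups. *Il10rb*, a chain shared by the receptors of IL-10, IL-22 and interferon lambda, ranged from 8.4 to 23.2 FPKM. *Il11ra1*, the IL-11 receptor, ranged from 10.5 to 17 FPKM, with no read on its near-identical copy *Il11ra2*, so a split of reads between them is not visible here. *Il34*, a ligand of the CSF1 receptor, was the ligand with the highest group mean, 14.1 FPKM in eWAT of ND-fed mice. *Il21r*, *Il2rg* and *Il7r*, receptor chains of lymphocytes, reached 23.5, 19.2 and 18.2 FPKM in iWAT of ND-fed mice, where *Il21r* had the highest group mean of any member.

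**Figure D1:**
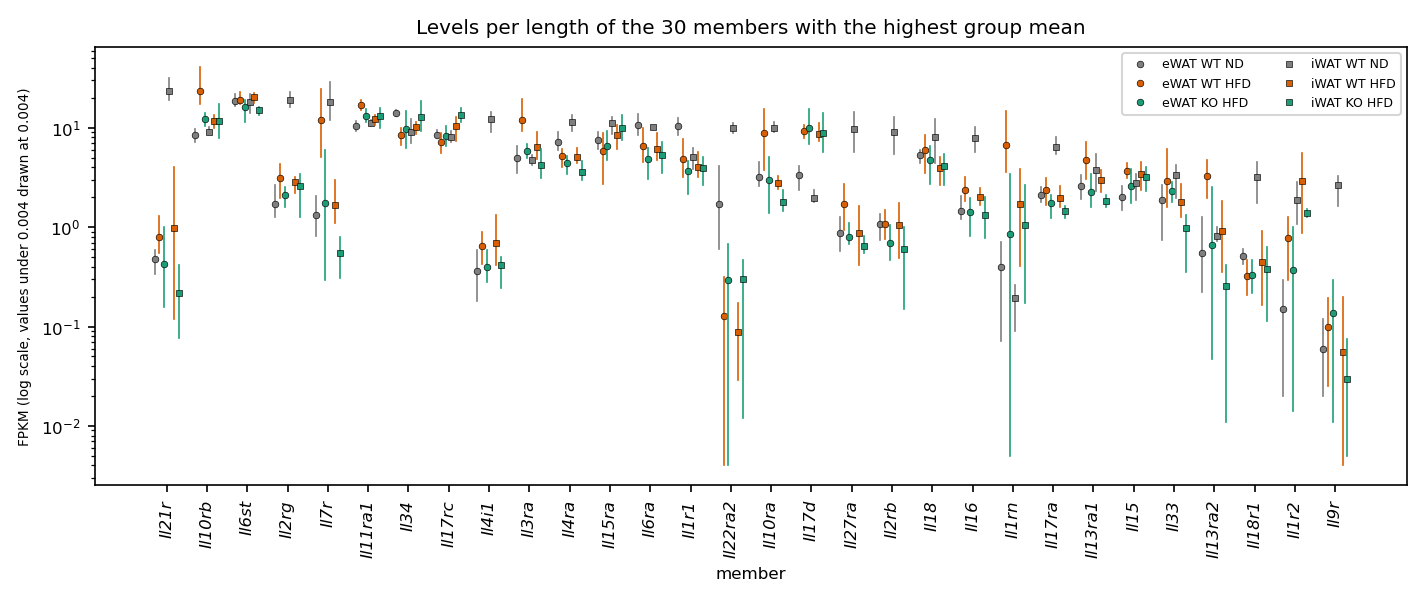
FPKM (y axis, log scale, values under 0.004 drawn at 0.004) of the 30 members with the highest group mean (x axis, in that order). Points are group means, circles for eWAT and squares for iWAT, grey for ND-fed wild type, orange for HFD-fed wild type and green for HFD-fed Acod1-/- mice, and lines run from the lowest to the highest library. *Il6st* lies between 15.3 and 20.2 in every group, while *Il21r* is at 23.5 in iWAT of ND-fed mice and under 1 elsewhere.

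The cytokines best known from obese fat had few counts in these libraries. *Il1b* had counts of 9, 5, 21 and 10 in eWAT of ND-fed, 4, 19, 0, 16 and 19 in that of HFD-fed wild type and 2, 3, 4, 21 and 8 in that of HFD-fed *Acod1*-/- mice. *Il6* had 0, 4, 5 and 4, then 4, 10, 2, 35 and 8, then 0, 2, 8, 11 and 11. Both overlapped between all eWAT groups, and differences between these groups were not detectable at this depth. In iWAT *Il1b* had counts of 4, 15 and 6 in ND-fed, 5, 20, 10, 14 and 0 in HFD-fed wild type and 0, 2 and 0 in HFD-fed *Acod1*-/- mice. The gene *Il1bos* overlaps *Il1b* on the other strand. Whether this added reads to the count of *Il1b* or took them from it is not known, since the use of strand in the counting is not given in the sources used here. *Il10*, an anti-inflammatory cytokine, had counts of 3, 16, 0 and 2 in ND-fed, 79, 50, 12, 52 and 29 in HFD-fed wild type and 5, 4, 0, 13 and 24 in HFD-fed *Acod1*-/- eWAT. Fitted with every gene kept, its log2 fold change was 3.38 ± 1.11 (adjusted p = 0.0462) for diet and -2.16 ± 0.96 (adjusted p = 0.227) for genotype.

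Some libraries held transcripts of neighbouring tissue. In iWAT of all 3 ND-fed mice the summed CPM of 5 B cell markers was 521 to 798, of 7 T cell markers 238 to 395 and of 5 lymph node markers 297 to 504. In iWAT of HFD-fed mice the B cell sum was under 6 in every library but HFD-fed wild type 5, at 82.4. The summed CPM of 4 epididymis markers was 7722 in eWAT library ND-fed wild type 2, 1117 in HFD-fed *Acod1*-/- 5 and at most 121 in the other 12. The sum of 5 mammary and skin epithelium markers was 311 in the same ND-fed eWAT library 2 and 529 in iWAT *Acod1*-/- 2. In eWAT *Acod1*-/- 4 the lymph node sum was 55.9 and the B cell sum 46.9. Adipocyte markers were abundant in every library, with summed CPM from 18455 upwards. *Acod1* itself had at most 9 counts in any library, also in wild type mice, and does not check a genotype. All ND-fed libraries and library 5 of the HFD-fed wild type group in both depots, library 5 of the *Acod1*-/- group in eWAT and its library 3 in iWAT share a form of sequencing run name in their file headers, called series 2, and the other 14 are series 1.

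Promoter windows are shown for 4 members that the results below turn on, to set their start regions side by side. They are the 300 bases from 250 before to 50 after the annotated start in RefSeq (GRCm38.p6), which held 81 windows for 66 members. The patterns searched were the AP-1-type TGANTCA, present in 7.81% of all 32851 windows and in 14 of the members' 81, and the STAT-type TTCNNNGAA, in 8.30% of all windows and in 11 of the 81. Both read the same on either strand, they do not overlap, and capitals mark a match. Of the 3 windows of *Il1rn*, the 1 with a match is shown. A match is a description of letters and not a site of binding. Each of the 4 members shown holds a match, other called members are not shown, and how often called members hold a match was not counted.
Il1rn (chr2:24336610-24336909, plus strand): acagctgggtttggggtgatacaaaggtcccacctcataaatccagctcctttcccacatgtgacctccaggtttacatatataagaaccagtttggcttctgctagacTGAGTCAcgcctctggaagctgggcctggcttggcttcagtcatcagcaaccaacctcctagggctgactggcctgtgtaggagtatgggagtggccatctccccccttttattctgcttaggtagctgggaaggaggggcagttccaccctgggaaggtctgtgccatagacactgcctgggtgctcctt
Il13ra2 (chrX:147429143-147429442, minus strand): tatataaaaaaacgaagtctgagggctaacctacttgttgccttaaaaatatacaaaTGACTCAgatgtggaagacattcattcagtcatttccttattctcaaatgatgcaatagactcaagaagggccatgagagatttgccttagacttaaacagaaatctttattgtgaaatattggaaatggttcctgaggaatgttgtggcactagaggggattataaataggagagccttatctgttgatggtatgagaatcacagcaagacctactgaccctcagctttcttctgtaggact
Il7r (chr15:9529827-9530126, minus strand): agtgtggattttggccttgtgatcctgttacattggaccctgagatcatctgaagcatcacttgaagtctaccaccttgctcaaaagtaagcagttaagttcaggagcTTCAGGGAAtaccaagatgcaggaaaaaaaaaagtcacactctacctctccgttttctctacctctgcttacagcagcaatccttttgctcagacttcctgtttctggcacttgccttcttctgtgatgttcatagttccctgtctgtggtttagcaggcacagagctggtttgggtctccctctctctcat
Il17d (chr14:57524579-57524878, plus strand): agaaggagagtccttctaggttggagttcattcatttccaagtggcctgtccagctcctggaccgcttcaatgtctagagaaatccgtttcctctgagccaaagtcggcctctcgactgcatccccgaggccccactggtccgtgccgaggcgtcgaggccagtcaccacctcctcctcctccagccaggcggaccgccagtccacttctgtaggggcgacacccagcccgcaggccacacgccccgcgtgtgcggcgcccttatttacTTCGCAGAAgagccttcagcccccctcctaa
The AP-1-type match lay 141 bases before the start in *Il1rn* and 193 before it in *Il13ra2*. The STAT-type match lay 142 bases before the start in *Il7r* and 19 after it in *Il17d*.

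In eWAT of wild type mice, mRNA of the IL-1 receptor antagonist, the IL-7 receptor, the IL-13 decoy receptor, the IL-10 receptor chains and *Il17d* was higher on HFD. That of the IL-1 receptor *Il1r1* and the IL-25 receptor chain *Il17rb* was lower. Of 39 members tested, 17 were called higher and 9 lower at an adjusted p under 0.1 (edgeR's quasi-likelihood test, Benjamini-Hochberg over all 14936 genes tested), where 24.8% of all genes were called higher and 26.9% lower. The share called higher, 43.6%, was above that background and the share called lower, 23.1%, was near it. Of the 38 members over 1 CPM in both groups, which leaves out *Il22ra2*, 17 were called higher and 8 lower. The median log2 fold change was 0.54 over the members tested and -0.04 over all genes. Values below are CPM per library after TMM normalization, in the order of replicate numbers, and log2 fold changes are given ± their standard error. The p-values measure the spread between these mice.

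Among the ligands, *Il17d*, an IL-17 family cytokine, stood at 4.85, 4.13, 4.51 and 3.05 CPM in ND-fed and 9.71, 9.45, 14, 12.1 and 14 CPM in HFD-fed wild type mice. The groups did not overlap, and the log2 fold change was 1.52 ± 0.27 (adjusted p = 0.00121). *Il15*, which sustains natural killer and memory T cells, lay at 3.11 to 5.35 CPM on ND and at 7.29 to 9.14 CPM on HFD, again without overlap, and rose by 0.90 ± 0.23 (adjusted p = 0.00825). *Il16*, a chemoattractant of CD4-bearing cells, rose by 0.75 ± 0.24 (adjusted p = 0.0252). *Il34* (ENSMUSG00000031750, chromosome 8, 110741829 to 110805924) lay at 23.8 to 30.4 CPM on ND and at 13.7 to 20.3 CPM on HFD, with a log2 fold change of -0.70 ± 0.21 (adjusted p = 0.0169). *Il33*, *Il18* and *Il7* did not pass the test, with *Il33* at 0.66 ± 0.38 (adjusted p = 0.170).

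The largest increase of the members tested was that of an inhibitor. *Il1rn* (ENSMUSG00000026981, chromosome 2, 24336853 to 24351494), whose product occupies the IL-1 receptor without activating it, measured 3.62, 2.62, 1.71 and 0.409 CPM in ND-fed mice. In HFD-fed wild type mice it measured 74.7, 30.8, 24, 31.5 and 20.5 CPM. Every HFD library was above every ND library, with a log2 fold change of 4.12 ± 1.14 (adjusted p = 0.0116). *Il13ra2* (ENSMUSG00000031289, chromosome X, 147383476 to 147429192), which binds IL-13 as a decoy, went from 0.465, 2.65, 1.01 and 0.662 to 7.49, 10.2, 4.98, 9.64 and 4.62 CPM. These groups were apart as well, at 2.62 ± 0.93 (adjusted p = 0.0364). *Il22ra2*, which encodes a soluble IL-22 binding protein, fell instead, from 1.4, 9.43, 3.35 and 2.14 to 0.661, 0.0416, 0.0228, 0 and 0.824 CPM, a log2 fold change of -3.69 ± 1.19 (adjusted p = 0.0238). It averaged under 1 CPM on HFD, so that a difference was built into its passing the filter, and its highest ND value was in the library with the most epididymis transcripts. Without that library the gene fell under the filter and was not tested. With the sequencing series as a term the call was lost, at -2.47 (adjusted p = 0.258). *Il18bp*, the IL-18 binding protein, did not pass the test, at -0.25 ± 0.23 (adjusted p = 0.388).

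Among receptors, *Il7r* (ENSMUSG00000003882, chromosome 15, 9505788 to 9530176), the IL-7 receptor chain that lymphocytes and some myeloid cells carry, measured 8.84, 6.29, 3.93 and 4.26 CPM in ND-fed and 106, 55.8, 30.4, 50.8 and 24.5 CPM in HFD-fed wild type mice. The groups were apart, with a log2 fold change of 3.19 ± 0.78 (adjusted p = 0.00613). *Il10rb* (ENSMUSG00000022969, chromosome 16, 91406164 to 91425834) measured 33.7, 24.8, 33.1 and 32.3 and 144, 68.5, 80.5, 71.3 and 68.7 CPM, apart at 1.48 ± 0.21 (adjusted p = 0.000376). *Il10ra*, the chain that binds IL-10, measured 14.7, 8.36, 9.55 and 10.3 and 49.2, 33.7, 18.7, 36.1 and 13.6 CPM. HFD library 5 lay within the ND range, and the log2 fold change was 1.5 ± 0.38 (adjusted p = 0.00694). *Il3ra*, the IL-3 receptor alpha chain, measured 17.9, 11.2, 16.8 and 10.5 and 53, 31.3, 28.5, 30.6 and 28.7 CPM and rose by 1.29 ± 0.21 (adjusted p = 0.000770). Smaller increases were called for *Il27ra*, *Il2ra*, *Il2rg*, *Il13ra1*, *Il11ra1*, *Il1rl1*, the IL-33 receptor ST2, and *Il1rl2*, the IL-36 receptor, all with log2 fold changes between 0.72 and 1.02. The call of *Il1rl1* was lost in 5 of 24 alternative fits, among them those without ND-fed 4 or HFD-fed wild type 1 or 2, at adjusted p up to 0.141 in the fits that left out 1 library, and its value turned to -0.21 (adjusted p = 0.745) in series 2 alone. *Il4i1* was also called higher, at 0.89 ± 0.37 (adjusted p = 0.0692), a call lost in 9 of 23 alternative fits, among them those without ND-fed 3 or 4 or HFD-fed wild type 2 or 4, at adjusted p up to 0.527.

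The receptor with the largest decrease was *Il17rb* (ENSMUSG00000015966, chromosome 14, 29996135 to 30008896), which with *Il17ra* forms the IL-25 receptor, at 5.53, 5.18, 6.27 and 5.37 CPM on ND and 1.44, 1.62, 1.6, 1.27 and 0.784 CPM on HFD. The groups were far apart, with a log2 fold change of -2.05 ± 0.41 (adjusted p = 0.00198). *Il1r1* (ENSMUSG00000026072, chromosome 1, 40225080 to 40317257), the signalling receptor of IL-1, measured 49.1, 52.4, 81.7 and 76.1 and 45.3, 35.6, 21.1, 26.9 and 21.1 CPM, apart at -1.11 ± 0.25 (adjusted p = 0.00354). By diet group the signalling receptor was lower and its antagonist *Il1rn* higher, but among HFD-fed wild type libraries both were highest in library 1. *Il1rap*, the accessory chain of that receptor, did not pass the test at 0.52 ± 0.29 (adjusted p = 0.164). With the sequencing series as a term *Il1rap* was called higher, at 0.97 (adjusted p = 0.0832). *Il17re*, the IL-17C receptor, changed by -1.12 ± 0.30 (adjusted p = 0.00946) and *Il6ra*, the IL-6 receptor, by -0.70 ± 0.22 (adjusted p = 0.0239), while its partner *Il6st* was at 0.07 ± 0.12 (adjusted p = 0.663). *Il4ra*, *Il17rd* and *Il18r1* were called lower too, with log2 fold changes between -0.63 and -0.42. The call of *Il18r1* was lost in 15 of 23 alternative fits, among them those without any 1 of the ND-fed libraries, HFD-fed wild type 1, 3, 4 or 5 or *Acod1*-/- 1, at adjusted p up to 0.336. That of *Il17rd* was lost in 10 of 24, among them those without ND-fed 1, 3 or 4 or HFD-fed wild type 3, 4 or 5, at adjusted p up to 0.405.

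Diet and sequencing series nearly coincided. With the series as a term in the fit, 13 members were called higher and 3 lower, the latter being *Il17rb*, *Il1r1* and *Il34*. In that fit the values were larger for *Il1rn*, at 6.51 (adjusted p = 0.00726), *Il7r*, at 4.87 (adjusted p = 0.00594), and *Il13ra2*, at 4.81 (adjusted p = 0.0121). With series 2 alone, which leaves 1 HFD-fed wild type library whose spread is assumed to equal that of the ND-fed group, *Il7r*, *Il10rb*, *Il1rn* and *Il17d* were called higher and *Il17rb* and *Il1r1* lower. There *Il10ra* was at 0.36 (adjusted p = 0.518).

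**Figure D2:**
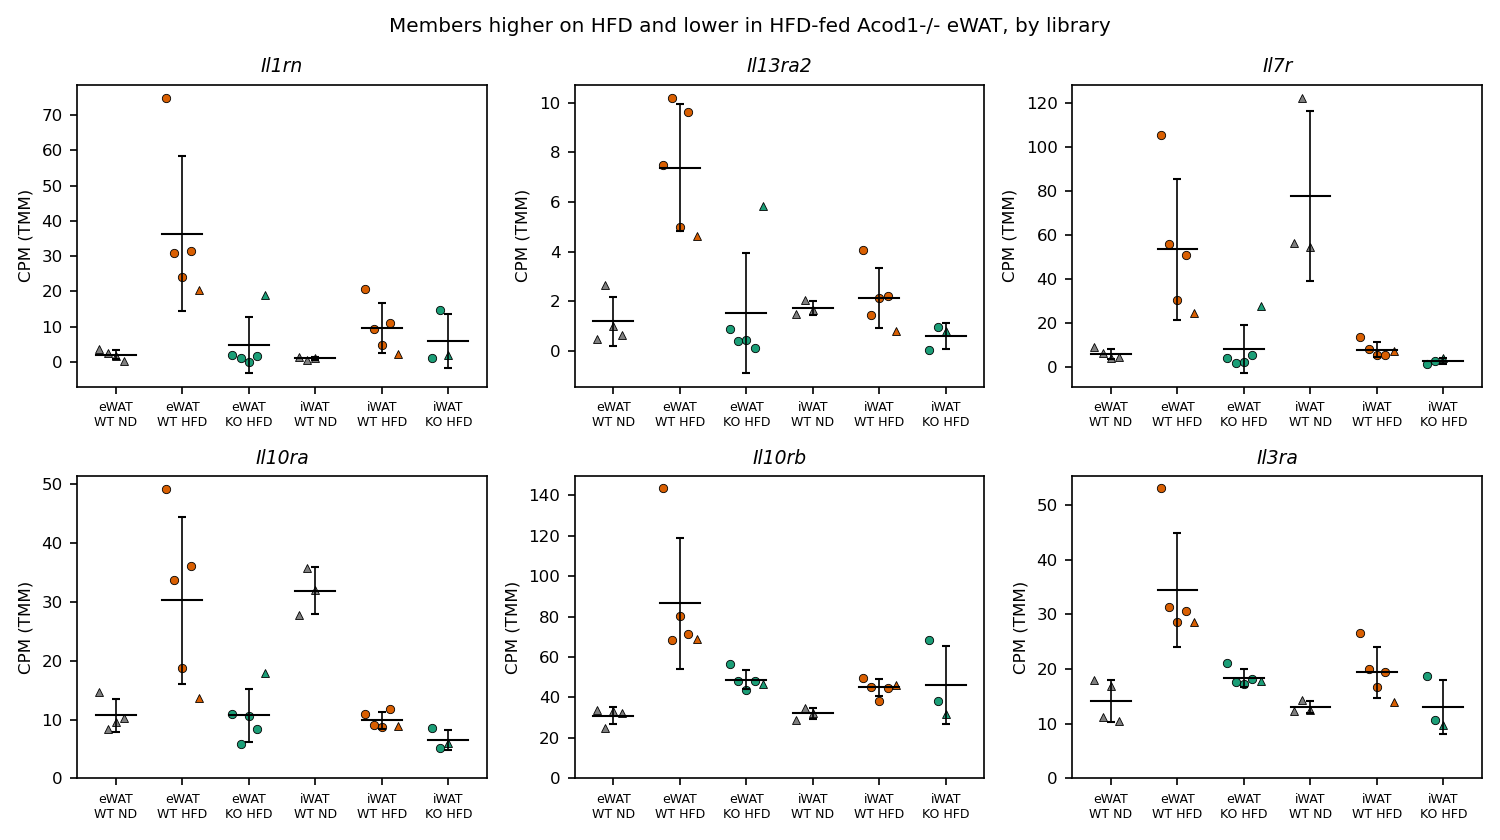
CPM after TMM normalization (y axes, linear) of 6 members in the 6 groups (x axes), 1 point a library, circles for sequencing series 1 and triangles for series 2, with the group mean (line) and SD (bar). In eWAT, *Il1rn* is at 20.5 to 74.7 in HFD-fed wild type mice and at or under 2.02 in 4 of 5 HFD-fed Acod1-/- libraries, the exception being 18.9 in library 5.

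In eWAT on HFD, *Acod1*-/- mice had less mRNA than wild type mice for the IL-1 receptor antagonist, the IL-7 receptor, both IL-10 receptor chains, the IL-13 receptor and its decoy and the IL-3 receptor. Of 39 members tested 11 were called lower and 1 higher, where 10.8% of all genes were called lower and 9.13% higher. The share lower was 28.2% and the share higher 2.56%. The count lower was 7, 6, 7 and 7 without HFD-fed wild type 1 or 4 or *Acod1*-/- 2 or 3, and the count higher was 0 without HFD-fed wild type 1 or *Acod1*-/- 4 and 2 without *Acod1*-/- 2 or 5. The median log2 fold change was -0.38 over the members and 0.04 over all genes. This comparison and that of diet share the HFD-fed wild type libraries, and the values of both are given side by side without counting members called in both.

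*Il1rn* measured 2.02, 1.11, 0.0272, 1.82 and 18.9 CPM in HFD-fed *Acod1*-/- mice, all below the lowest HFD-fed wild type library. The log2 fold change by genotype was -2.92 ± 0.98 (adjusted p = 0.0674), beside 4.12 ± 1.14 (adjusted p = 0.0116) by diet. Library 5 stood apart from the other 4, and without it the value was -4.87 (adjusted p = 0.00204). The other series 2 library on HFD, wild type 5, was at 20.5 CPM. Within this pair *Il7r*, *Il13ra2*, *Il13ra1* and *Il10ra* were higher in the *Acod1*-/- library, and *Il10rb* and *Il3ra* were lower. The call of *Il1rn* was lost without HFD-fed wild type 1 or 4, at -2.5 (adjusted p = 0.158) and -2.96 (adjusted p = 0.109). It was also lost without *Acod1*-/- 1, 2 or 4, at -2.72 (adjusted p = 0.135), -2.67 (adjusted p = 0.119) and -2.71 (adjusted p = 0.137).

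*Il7r* measured 3.86, 1.65, 2.18, 5.5 and 27.7 CPM in HFD-fed *Acod1*-/- mice. Library 5 lay within the range of the HFD-fed wild type group and the other 4 within or below that of the ND-fed group. The log2 fold change by genotype was -2.7 ± 0.70 (adjusted p = 0.0267), beside 3.19 ± 0.78 (adjusted p = 0.00613) by diet, and it was called in every alternative fit, from -2.32 (adjusted p = 0.0717) without HFD-fed wild type 1 to -4.19 (adjusted p = 0.00139) in series 1 alone.

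*Il13ra2* measured 0.896, 0.383, 0.436, 0.107 and 5.83 CPM, again with library 5 in the range of the HFD-fed wild type group. It changed by -2.26 ± 0.84 (adjusted p = 0.0946), beside 2.62 ± 0.93 (adjusted p = 0.0364) by diet. That call was lost in 10 of 14 fits that each left out 1 library, those without ND-fed 3 or 4, HFD-fed wild type 1, 2, 3 or 4, or *Acod1*-/- 1, 2, 3 or 4, with adjusted p up to 0.187. It was -4.02 (adjusted p = 0.00178) without *Acod1*-/- 5. *Il13ra1*, the signalling IL-13 receptor chain, measured 24.6, 14.6, 14, 21 and 11.7 CPM in HFD-fed wild type and 8.56, 7.16, 7.05, 8.31 and 12.7 CPM in *Acod1*-/- mice. The ranges overlapped, through wild type 5 and *Acod1*-/- 5. It changed by -0.97 ± 0.23 (adjusted p = 0.0188), beside 0.91 ± 0.25 (adjusted p = 0.0103) by diet.

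*Il10ra* measured 10.9, 5.86, 10.6, 8.36 and 17.9 CPM in HFD-fed *Acod1*-/- mice and overlapped with wild type through library 5 of each group. It changed by -1.5 ± 0.35 (adjusted p = 0.0174), beside 1.5 ± 0.38 (adjusted p = 0.00694) by diet. *Il10rb* measured 56.4, 48.3, 43.9, 48.4 and 46.9 CPM, and *Il3ra* 21.2, 17.5, 17.2, 18.1 and 17.7 CPM. In both genes every *Acod1*-/- library was below every HFD-fed wild type library, library 5 included. *Il10rb* changed by -0.83 ± 0.19 (adjusted p = 0.0169) and *Il3ra* by -0.91 ± 0.20 (adjusted p = 0.0144). Both were called in every alternative fit, and *Il10ra* and *Il13ra1* were too.

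The other members called lower each lost their call when some single library was left out, as *Il1rn* and *Il13ra2* did. *Il27ra*, the IL-27 receptor, changed by -1.0 ± 0.29 (adjusted p = 0.0412), and by -0.83 (adjusted p = 0.110) without HFD-fed wild type 1. *Il1rl2* changed by -1.01 ± 0.34 (adjusted p = 0.0659), a call lost without HFD-fed wild type 1 or 4 or *Acod1*-/- 3 or 4, at adjusted p up to 0.152. *Il1rl1* changed by -0.76 ± 0.29 (adjusted p = 0.0991) and lost its call in 16 of 24 alternative fits, among them those without any 1 of the ND-fed libraries, HFD-fed wild type 1, 2 or 4 or *Acod1*-/- 1, 2, 3 or 4, at adjusted p up to 0.251. *Il16*, the only ligand called, changed by -0.68 ± 0.23 (adjusted p = 0.0665), a call lost without HFD-fed wild type 2 or 4 or *Acod1*-/- 2 or 3, at adjusted p up to 0.167.

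The member called higher was *Il17re* (ENSMUSG00000043088, chromosome 6, 113458484 to 113470758), at 2.72, 4.54, 5.62, 1.84 and 5.99 CPM in HFD-fed wild type and 8.46, 7.47, 7.82, 9.38 and 5.83 CPM in HFD-fed *Acod1*-/- mice. The groups overlapped at *Acod1*-/- 5, and the log2 fold change was 0.91 ± 0.28 (adjusted p = 0.0533), beside -1.12 ± 0.30 (adjusted p = 0.00946) by diet. The call was lost without HFD-fed wild type 1, at 0.78 (adjusted p = 0.126), or *Acod1*-/- 4, at 0.84 (adjusted p = 0.113). Members with large diet differences that did not pass by genotype were *Il17d* at 0.20 ± 0.25 (adjusted p = 0.643), *Il17rb* at 0.90 ± 0.38 (adjusted p = 0.137), *Il1r1* at -0.29 ± 0.23 (adjusted p = 0.434) and *Il22ra2* at 1.27 ± 1.09 (adjusted p = 0.469). *Il17rb* was called without *Acod1*-/- 2, at 1.07 (adjusted p = 0.0927), or without *Acod1*-/- 5, at 1.03 (adjusted p = 0.0809).

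Cell type markers moved with these members. Of 8 macrophage markers 7 were called higher and 1 lower by diet in eWAT, and 7 were called lower by genotype. Their summed CPM was 422 to 807 on ND, 1162 to 3848 in HFD-fed wild type and 326 to 1236 in HFD-fed *Acod1*-/- mice, the highest of the last group being library 5. Per 1000 CPM of that sum, *Il1rn* measured 4.48, 6.21, 3.06 and 0.877 on ND, 19.4, 11.5, 16.3, 10.2 and 17.7 in HFD-fed wild type and 3.14, 3.4, 0.0707, 3.35 and 15.3 in *Acod1*-/- libraries. By this measure too the HFD-fed wild type libraries were above the ND-fed ones, and above 4 of the 5 *Acod1*-/- libraries. *Il7r* per 1000 CPM of the sum measured 11, 14.9, 7.02 and 9.15, then 27.5, 20.9, 20.6, 16.5 and 21.1, then 6.01, 5.05, 5.66, 10.1 and 22.4, with the same order. *Il13ra2* per 1000 CPM of the sum measured 0.577, 6.29, 1.8 and 1.42, then 1.95, 3.81, 3.38, 3.12 and 3.98, then 1.4, 1.17, 1.13, 0.197 and 4.71. The HFD-fed wild type libraries were inside the range of the ND-fed ones only through ND-fed 2, the library with the most epididymis transcripts. The other ND-fed libraries were below every HFD-fed wild type library. *Il10ra* measured 18.2, 19.8, 17.1 and 22.1, then 12.8, 12.6, 12.7, 11.7 and 11.7, then 17, 18, 27.4, 15.4 and 14.4, so that the order of the diet groups was turned and the HFD-fed wild type libraries were the lowest of the 3 groups.

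Mast cell markers, with a summed CPM of 2.37 to 10.2 on ND, were at 9.77 to 173 in HFD-fed wild type and 4.75 to 21.9 in *Acod1*-/- mice, and 4 of 4 tested were called higher by diet and lower by genotype. T cell markers summed to 5.09 to 8.95 CPM on ND, 16.1 to 30.6 CPM in HFD-fed wild type and 6.02 to 9.74 CPM in *Acod1*-/- mice, and of 6 tested 4 were higher by diet and 3 lower by genotype. Neutrophil markers summed to 1.28 to 3.97 CPM on ND, 23.5 to 51.5 CPM in HFD-fed wild type and 3.0 to 38.9 CPM in *Acod1*-/- mice, and the 1 of 5 that passed the filter was called higher by diet. Of 6 progenitor markers 4 were called higher by diet and 1 lower by genotype. They summed to 700 to 861 CPM on ND, 716 to 1041 CPM in HFD-fed wild type and 718 to 994 CPM in *Acod1*-/- mice. Other lists were lower on HFD, as were the 9 members called lower. Of mammary and skin epithelium markers 4 of 5 were called lower by diet, with a summed CPM of 28.4 to 311 on ND and 3.4 to 20.6 in HFD-fed wild type mice, where *Krt5* was at 0. Of endothelial markers 3 of 4 were called lower, at 507 to 800.1 CPM on ND and 247 to 454 CPM on HFD. Of mesothelial markers 2 of 4 were called lower, at 53.6 to 102 CPM and 33.6 to 58.7 CPM. No other marker of these lists was at 0 throughout an eWAT group. The part that these cells have in the members' differences was not tested.

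In iWAT of wild type mice, mRNA of lymphocyte receptor chains was lower on HFD, in a comparison whose 3 ND libraries held lymph node transcripts. Of 43 members tested 20 were called lower and 9 higher, where 24.2% of all genes were called lower and 25.9% higher. The median log2 fold change was -0.58 over the members and 0.00 over all genes. The share called lower was 46.5% and the share called higher 20.9%. *Il22ra2*, *Il5ra*, *Il9r* and *Il12rb1* averaged under 1 CPM in the HFD-fed wild type libraries, so that a difference was built into their passing the filter. Of the 39 members over 1 CPM in both groups 16 were called lower and 9 higher.

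*Il2rg* (ENSMUSG00000031304, chromosome X, 101264378 to 101268255), the common gamma chain of the receptors of IL-2, IL-4, IL-7, IL-9, IL-15 and IL-21, measured 34.5, 49.7 and 42.1 CPM on ND and 7.42, 5.55, 6.29, 7.8 and 7.46 CPM on HFD, a log2 fold change of -2.58 ± 0.26 (adjusted p = 9.40e-05). *Il21r* (ENSMUSG00000030745, chromosome 7, 125603429 to 125633570) measured 55.7, 93.7 and 66.5 and 0.575, 0.994, 0.404, 1.08 and 13.2 CPM, at -4.4 ± 1.0 (adjusted p = 0.00540), and its highest HFD value was in library 5, the HFD library with the most B and T cell markers. *Il7r* measured 56.3, 122 and 54.7 and 13.5, 7.92, 5.3, 5.6 and 7.06 CPM, at -3.27 ± 0.39 (adjusted p = 0.000173). All 3 were apart between the groups. *Il9r* changed by -5.34 ± 1.11 (adjusted p = 0.00321), *Il5ra*, the IL-5 receptor, by -5.14 ± 0.77 (adjusted p = 0.00100), *Il27ra* by -3.29 ± 0.39 (adjusted p = 0.000174), *Il2rb* by -2.92 ± 0.50 (adjusted p = 0.00122), and *Il18r1*, the IL-18 receptor, by -2.66 ± 0.56 (adjusted p = 0.00334).

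*Il22ra2* (ENSMUSG00000039760, chromosome 10, 19621998 to 19634681) measured 21.6, 20.1 and 27.4 CPM on ND and 0.425, 0.127, 0.152, 0.0736 and 0.320 CPM on HFD, a log2 fold change of -6.65 ± 0.76 (adjusted p = 0.000151). *Il4i1* measured 36.3 to 53.1 CPM on ND and 1.8 to 5.3 CPM on HFD, at -3.96 ± 0.37 (adjusted p = 7.78e-05). The T cell list (7 of 7), the B cell list (5 of 5) and the lymph node list (5 of 5) were called lower in the same comparison. Subunit genes of IL-12, which antigen-presenting cells make, were under the filter and were counted mainly in the same 3 libraries. *Il12a* had counts of 104, 203 and 104 on ND and 0, 6, 0, 0 and 18 on HFD in wild type mice, and *Il12b* had 67, 114 and 16 and 5, 5, 0, 9 and 0. No ND library of iWAT lacked these markers, so diet and lymph node content cannot be told apart here.

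Receptors that are not confined to lymphocytes also fell, and for these too diet and lymph node content cannot be told apart. *Il10ra* changed by -1.66 ± 0.18 (adjusted p = 0.000122), *Il17ra*, the shared IL-17 receptor chain, by -1.54 ± 0.17 (adjusted p = 0.000139), *Il4ra* by -0.99 ± 0.15 (adjusted p = 0.000648) and *Il17rb* by -1.29 ± 0.37 (adjusted p = 0.0168). *Il17rb* measured 6.02, 6.87 and 3.99 CPM on ND and 1.72, 2.34, 3.49, 1.08 and 2.58 CPM on HFD. Of the ligands, *Il16* changed by -1.77 ± 0.26 (adjusted p = 0.000518) and *Il18* by -0.83 ± 0.33 (adjusted p = 0.0648). The call of *Il18* was lost in 8 of 20 alternative fits, among them those without ND-fed 2 or HFD-fed wild type 2, 4 or 5, with values from -1.47 to -0.43 and adjusted p up to 0.377. *Il33* did not pass the test at -0.73 ± 0.40 (adjusted p = 0.164). With the series as a term *Il33* was called, at -1.6 (adjusted p = 0.0234). Receptors that did not pass were *Il1r1* at -0.18 ± 0.23 (adjusted p = 0.562), *Il15ra* at -0.23 ± 0.22 (adjusted p = 0.424) and *Il13ra1* at -0.16 ± 0.25 (adjusted p = 0.628).

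**Figure D3:**
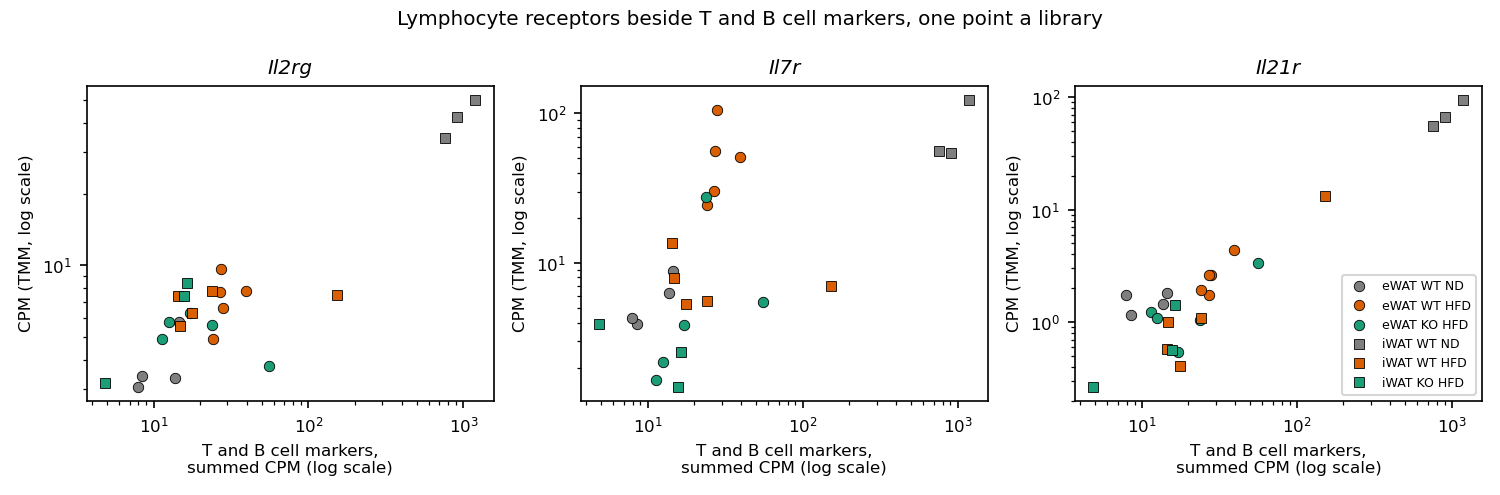
CPM of *Il2rg*, *Il7r* and *Il21r* (y axes, log scale) against the summed CPM of 12 T and B cell markers (x axes, log scale), 1 point a library, circles for eWAT and squares for iWAT, grey for ND-fed wild type, orange for HFD-fed wild type and green for HFD-fed Acod1-/- mice. The 3 iWAT libraries of ND-fed mice stand at the right, and *Il7r* reaches 106 in eWAT of HFD-fed wild type mice, where the 7 T cell markers sum to 16.1 to 30.6 CPM.

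Members that rose on HFD in iWAT included *Il17d* and *Il1rn*, and the count higher was 4 in place of 9 without ND-fed 2. *Il17d* (ENSMUSG00000050222, chromosome 14, 57524777 to 57543166) measured 2.65, 2.06 and 2.27 CPM on ND and 10.9, 15, 9.85, 11.1 and 9.26 CPM on HFD, apart, with a log2 fold change of 2.3 ± 0.32 (adjusted p = 0.000383). It was the only ligand called higher in both depots, and it was called in every alternative fit of both diet comparisons. *Il1rn* measured 1.29, 0.448 and 1.25 and 20.7, 9.48, 4.83, 11 and 2.22 CPM, apart at 3.3 ± 0.99 (adjusted p = 0.0214). With the sequencing series as a term its value was 1.36 (adjusted p = 0.317). *Il20rb*, a chain of the IL-20 receptors, changed by 1.37 ± 0.44 (adjusted p = 0.0287), *Il1rl2* by 0.96 ± 0.23 (adjusted p = 0.00717) and *Il17rd* by 0.94 ± 0.21 (adjusted p = 0.00526). Over 20 alternative fits the value of *Il20rb* ran from 0.54 to 1.58 and its call was lost in 4, among them 1 that left out a single library (adjusted p = 0.116). *Il17rc*, *Il3ra*, *Il10rb* and *Il6st* had smaller increases, between 0.33 and 0.60, and those of the last 3 lost their call in 9 to 11 of 20 alternative fits. Macrophage markers, 6 of 8 called higher, had a summed CPM of 419 to 516 on ND and 409.8 to 1089.5 on HFD. Of adipocyte markers 4 of 5 were called higher, at 20410 to 25002 CPM on ND and 36871 to 46721 CPM on HFD. Of progenitor markers 4 of 6 were, at 406 to 510 and 885 to 1250 CPM, and of endothelial markers 4 of 4, at 368 to 487 and 495 to 795 CPM. The part of these cells was not tested.

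**Figure D4:**
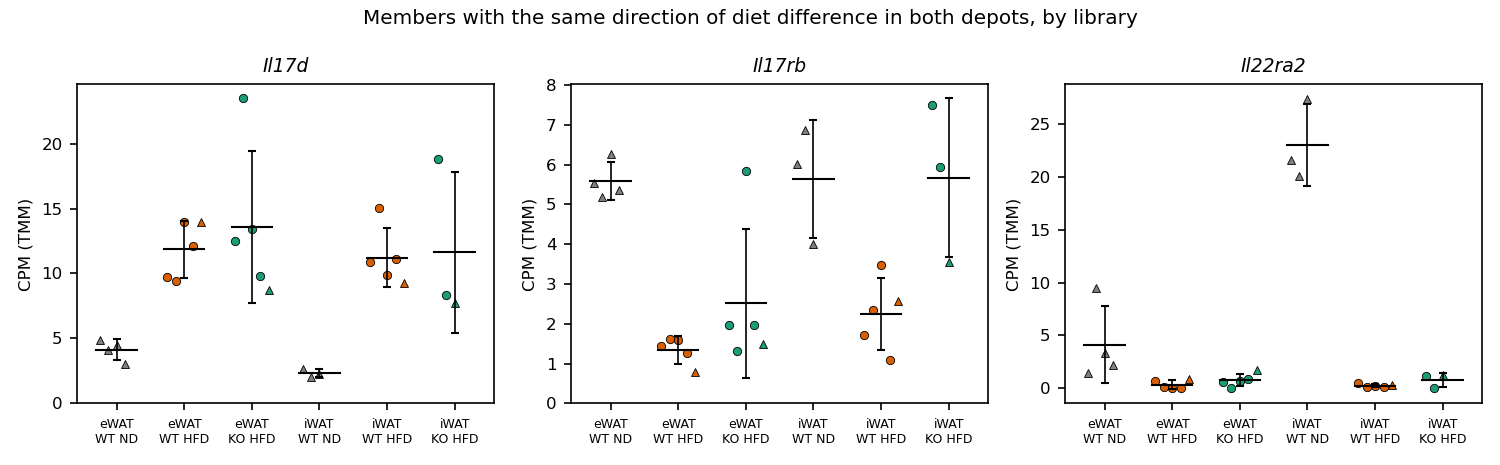
CPM after TMM normalization (y axes, linear) of *Il17d*, *Il17rb* and *Il22ra2* in the 6 groups (x axes), with points, lines and bars as in the plot of the eWAT members. *Il17d* is under 5 in the 7 libraries of ND-fed mice and above 7 in the 18 of HFD-fed mice.

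By genotype on HFD in iWAT, with 5 wild type and 3 *Acod1*-/- libraries, no member was called by edgeR's quasi-likelihood test, and neither was any other gene, so the background was 0% in both directions. At an unadjusted p under 0.05 were 17 members, 13 lower and 4 higher, which is 39.5% of the 43 tested against 16.7% of all genes. *Il7r* measured 1.49, 2.56 and 3.93 CPM in *Acod1*-/- mice, all below the 5.3 to 13.5 CPM of the HFD-fed wild type mice, and changed by -1.58 ± 0.42 (adjusted p = 0.146). *Il10ra* was also apart, at 8.48, 5.15 and 5.94 CPM and -0.62 ± 0.19 (adjusted p = 0.162). *Il17rb* was apart in the other direction, at 7.51, 5.94 and 3.54 CPM and 1.3 ± 0.37 (adjusted p = 0.154), and so was *Il17re*, at 9.92, 9.88 and 7.86 CPM and 0.97 ± 0.29 (adjusted p = 0.158). *Il1rn*, at 0.977, 14.8 and 1.94 CPM, overlapped with the HFD-fed wild type mice and changed by -0.74 ± 0.86 (adjusted p = 0.718), and by -2.72 (adjusted p = 0.297) without *Acod1*-/- 2. That library had a summed CPM of mammary and skin epithelium markers of 529, against 2.52 and 3.93 in the other 2, and the part of this was not tested. Macrophage markers summed to 409.8 to 1089.5 CPM in HFD-fed wild type and 296 to 367 CPM in *Acod1*-/- mice, without overlap. Median log2 fold changes by genotype were -1.16 for macrophage, -0.996 for T cell, -2.13 for B cell and -4.5 for lymph node markers. They were 1.16 for neutrophil (2 tested), 1.89 for group 2 innate lymphoid (1 tested) and 5.12 for epithelium markers. No marker was called, and the part of these cells was not tested.

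DESeq2's Wald test, which called 440 genes higher and 632 lower in this comparison, called *Il17rb*, *Il17re* and *Il22ra2* higher and *Il7r*, *Il10ra*, *Il5ra* and *Il20rb* lower. Of these, *Il22ra2* and *Il5ra* passed the filter through the ND-fed group and averaged under 1 CPM in both groups compared here. Without *Acod1*-/- 3, edgeR called *Il17rb* at 1.58 (adjusted p = 0.0388) and *Il17re* at 1.1 (adjusted p = 0.0648) higher. In that fit *Il7r* at -1.96 (adjusted p = 0.0409) and *Il6st* at -0.44 (adjusted p = 0.0879) were lower. The number of genes called over the whole table rose from 0 to 1401 higher and 1263 lower when that library was left out.

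**Figure D5:**
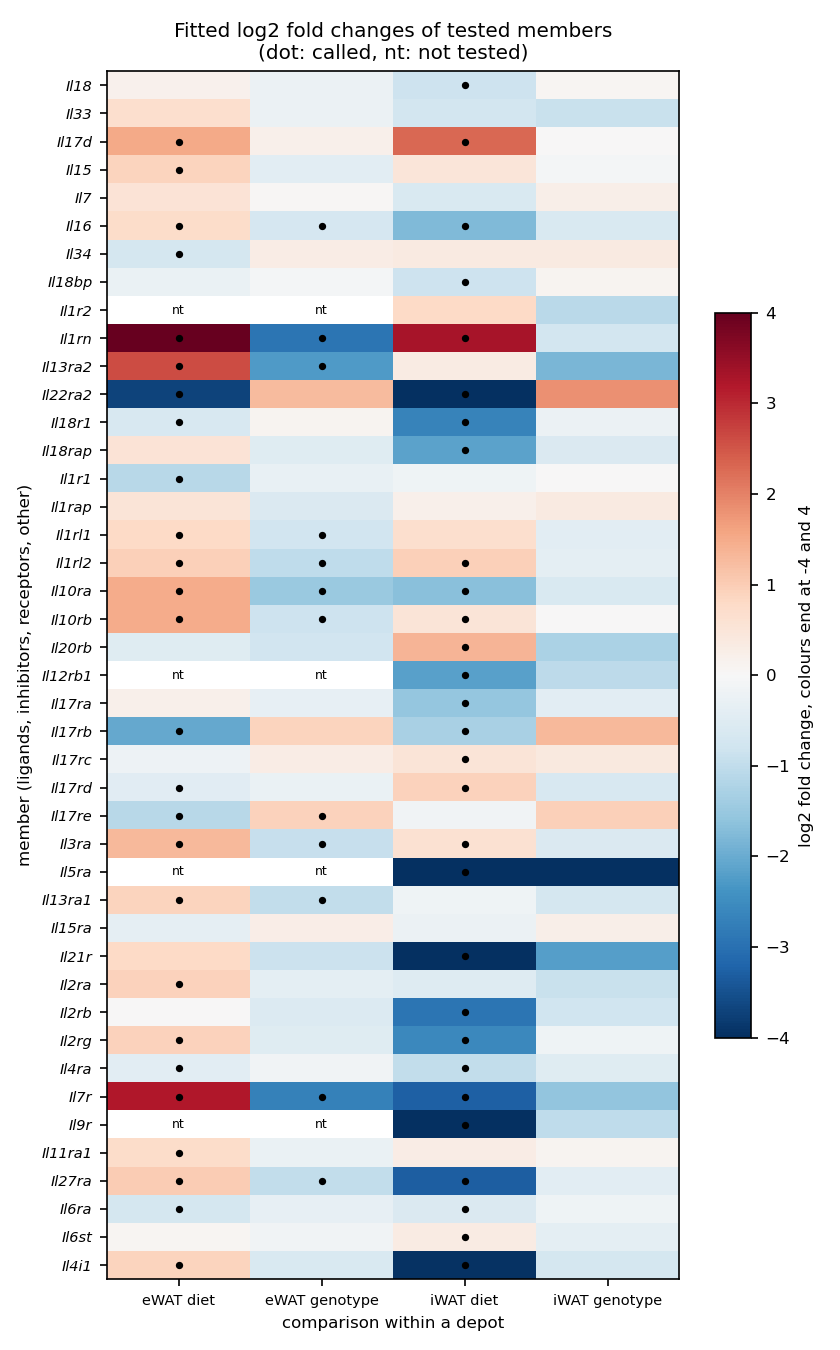
Fitted log2 fold changes (colour, ending at -4 and 4) of the members tested (rows, ligands first, then inhibitors, receptors and *Il4i1*) in the 4 comparisons within a depot (columns). A dot marks a call at an adjusted p under 0.1, and nt marks a member under the filter. Dots number 26, 12, 29 and 0 from left to right.

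Between the depots of ND-fed wild type mice, 17 of 41 members tested were called lower in eWAT than in iWAT and 7 higher, where 14.2% of all genes were lower and 17.5% higher. The lower ones were led by *Il21r* at -5.54 ± 0.95 (adjusted p = 0.000218), *Il9r* at -5.39 ± 1.17 (adjusted p = 0.00204), *Il4i1* at -5.0 ± 0.43 (adjusted p = 1.43e-07), *Il7r* at -3.73 ± 0.73 (adjusted p = 0.000823) and *Il1r2*, the IL-1 decoy receptor, at -3.53 ± 0.90 (adjusted p = 0.00648). The B and T cell markers (12 of 12) and the lymph node markers (4 of 4 tested) were called lower in eWAT in the same comparison. The higher ones were *Il20rb* at 1.97 ± 0.44 (adjusted p = 0.00254), *Il1r1* at 1.12 ± 0.29 (adjusted p = 0.00661), *Il17rd* at 0.97 ± 0.23 (adjusted p = 0.00365), *Il1rl1* at 0.95 ± 0.36 (adjusted p = 0.0599), *Il17d* at 0.83 ± 0.32 (adjusted p = 0.0633), *Il17re* at 0.78 ± 0.34 (adjusted p = 0.0938) and *Il34* at 0.73 ± 0.25 (adjusted p = 0.0376). The count higher was 4 without eWAT ND-fed 3 or iWAT ND-fed 3 and 3 without iWAT ND-fed 2. *Il1r2* and *Il9r* were below the filter in eWAT and passed over the 25 libraries through iWAT. A depot difference was thus built into their passing. Of the 39 members over 1 CPM in both groups 15 were called lower and 7 higher. Counts of *Il1r2* were 2, 5, 23 and 23 in eWAT on ND, and 129, 250 and 88 in iWAT. Of the other marker lists, mesothelial (4 of 4), epididymis (3 of 4) and macrophage markers (4 of 8) were called higher in eWAT. So were 2 of 4 endothelial, 2 of 5 epithelium and 2 of 5 adipocyte markers. Of progenitor markers 1 was higher and 1 lower, and 1 mast cell and 1 neutrophil marker were lower. The part of these cells was not tested. Depot and lymph node content of the ND-fed iWAT libraries cannot be told apart here.

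The difference in the diet effect between depots was tested as an interaction in a fit of all 25 libraries. It was called for 25 of 41 members, 20 with a diet effect higher in eWAT and 5 with one lower, where 14% of all genes were called higher and 15% lower. The largest was that of *Il7r*, whose diet effect was 6.5 ± 0.95 (adjusted p = 6.38e-05) higher in eWAT, having risen there and fallen in iWAT. *Il9r*, *Il21r*, *Il4i1* and *Il27ra* followed, between 4.36 and 6.16, all set against the ND-fed iWAT libraries with lymph node transcripts. *Il9r* averaged over 1 CPM in 1 iWAT group and in no eWAT group. A depot difference was thus built into its passing the filter. The 5 lower ones were *Il20rb*, *Il17rd*, *Il34*, *Il1r1* and *Il17rc*, between -1.83 and -0.68. The interaction was not called for *Il1rn* at 0.83 ± 1.45 (adjusted p = 0.726) or *Il17d* at -0.75 ± 0.41 (adjusted p = 0.200). For the genotype effect no member was called, where 0% of all genes were called higher and 0.00665% lower (1 gene), by edgeR. At an unadjusted p under 0.05 were 3 members, and DESeq2 called none. Without eWAT *Acod1*-/- 5 the interaction was called for *Il7r* at -2.47 (adjusted p = 0.0937) and *Il1rap* at -1.31 (adjusted p = 0.0936), and without iWAT *Acod1*-/- 3 for *Il10rb* at -1.09 (adjusted p = 0.0731). For *Il1rn*, whose genotype effect was called in eWAT alone, the difference between depots was -2.21 ± 1.36 (adjusted p = 0.596).

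Outside the name rule, 53 genes that work with these receptors were counted, of which 47 were tested in each depot. By diet in eWAT 20 were called higher and 8 lower, where 24.8% and 26.9% of all genes were. By genotype none was called higher and 16 lower, where 9.13% and 10.8% of all genes were, by the same edgeR test. Of the shared or partner receptor chains 7 of 9 were higher and 1 lower by diet, and 5 of 9 were lower by genotype. Among them *Crlf2*, the receptor of thymic stromal lymphopoietin that pairs with *Il7r*, changed by 1.25 ± 0.22 (adjusted p = 0.00105) by diet and -0.90 ± 0.20 (adjusted p = 0.0164) by genotype. *Csf2rb2*, a beta chain that pairs with *Il3ra*, changed by 1.56 ± 0.34 (adjusted p = 0.00331) and -1.49 ± 0.32 (adjusted p = 0.0139). Of the genes that process IL-1β and IL-18, 3 of 4 were higher by diet and 4 of 4 lower by genotype. *Casp1*, the protease that cleaves both cytokines, changed by 2.28 ± 0.30 (adjusted p = 0.000286) and -1.36 ± 0.27 (adjusted p = 0.0118), and *Pycard*, the inflammasome adaptor, by 2.46 ± 0.41 (adjusted p = 0.000846) and -1.92 ± 0.37 (adjusted p = 0.0115). *Ebi3*, the partner subunit of IL-27, changed by 1.79 ± 0.46 (adjusted p = 0.00801) and -1.92 ± 0.43 (adjusted p = 0.0157).

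Of 4 JAK family kinases 1 was higher and 2 lower by diet and none was called by genotype, and of 7 STAT transcription factors 2 were higher and 2 lower by diet and none was called by genotype. *Socs3*, a feedback inhibitor of IL-6 signalling, did not pass by diet at 0.56 ± 0.28 (adjusted p = 0.117) and was lower by genotype at -1.02 ± 0.26 (adjusted p = 0.0266). *Csf1r*, the receptor of IL-34, changed by 1.66 ± 0.38 (adjusted p = 0.00411) by diet and -1.67 ± 0.35 (adjusted p = 0.0136) by genotype. It is also 1 of the 8 macrophage markers. These 53 genes were listed with earlier results of these data known. In iWAT 8 of the 47 were higher and 19 lower by diet, where 25.9% and 24.2% of all genes were, and none was called by genotype. The ND-fed iWAT libraries held lymph node transcripts, so for these genes too diet and lymph node content cannot be told apart.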

How the data were processed

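Bulk RNA-seq of 25 adipose tissue samples was analysed, in 6 groups taken from the labels. The authors trimmed reads with cutadapt, filtered contaminants and mapped with STAR to mm10 (GRCm38), also naming bedtools in the submitters' processing notes. The counting program and its use of strand are not given in the sources used here. They deposited raw read counts per gene and FPKM values per library, each in 1 file a sample. Rows that name no gene held between 6.41% and 11.9% of reads as no feature and 1.52% to 2.07% as ambiguous, and they stayed out of library sizes and tests.

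Counts were tested with edgeR 4.0.16 (limma 3.58.1, R 4.3.3), by quasi-likelihood fits of all groups of a depot with TMM normalization, keeping genes whose mean CPM in the depot reached 1. Depots were compared in 1 fit of the 25 libraries. A gene was called at a Benjamini-Hochberg adjusted p under 0.1 over all genes tested. CPM values in the text use TMM over the 25 libraries, and FPKM served for levels between genes. Tables and figures were made with Python 3.11.15, numpy 2.4.6, pandas 2.3.3 and matplotlib 3.10.9. The scripts were tested on simulated data.

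Genes named in each comparison were 35 listed by role plus, per direction, the 5 members called with the largest change, and any other member where its role group was described. The members and lists were chosen with earlier results of these data known. Alternatives were a threshold of 0.05, DESeq2 1.42.0's Wald test and its size factors, every gene kept, 1 CPM required of each library, the replicate number as a block, the sequencing series as a term, a fit of the groups compared alone and leaving out each library. Fits of series 1 alone, of series 2 alone and without the 2 eWAT libraries highest in epididymis markers were added after seeing the data, as was the choice of uncalled members followed through the alternatives. Total counts were 31.4 M to 52.3 M per library, and values of under about 1 CPM rest on few reads.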

Additional observations from a re-analysis of the deposited data

Results flagged for a closer look

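Single libraries stood apart from the rest of their group in 17 of 160 groups of 4 or 5 libraries tested, where chance gives about 1 in 20. The measure was the gap to the nearest library over the group's range, against Dixon's 95% value, and all levels here are CPM. In eWAT of HFD-fed wild type mice library 1 was highest in *Il1rn* (74.7), *Il33* (16.3), *Il10rb* (144) and *Il3ra* (53.0), and library 3 was lowest in *Il4ra* (24.9). In eWAT of HFD-fed *Acod1*-/- mice library 5 was highest in *Il1rn* (18.9), *Il7r* (27.7), *Il13ra1* (12.7) and *Il13ra2* (5.83). There library 1 was highest in *Il3ra* (21.2), library 3 in *Il17rb* (5.83) and library 4 in *Il21r* (3.37). In eWAT of ND-fed mice library 1 was highest in *Il2rg* (5.78) and library 2 lowest in *Il10rb* (24.8). In iWAT of HFD-fed wild type mice library 5 was highest in *Il21r* (13.2) and *Il4i1* (5.30), and library 2 lowest in *Il12rb1* (0.255).

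*Acod1*-/- 5 in eWAT belongs to sequencing series 2 and held epididymis markers, with a summed CPM of 1117, and macrophage markers at 1236. Its neutrophil markers summed to 38.9 CPM, against 3.0 to 12.1 in the other 4 libraries, and its mast cell markers to 21.9 CPM, against 4.75 to 12.2. The part of these in its levels was not tested.

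The diet effect differed between depots, by the interaction term in edgeR, for 25 members, given as eWAT minus iWAT on the log2 scale. Among lymphocyte and myeloid receptor chains it was 6.5 for *Il7r*, 6.16 for *Il9r*, 5.24 for *Il21r*, 4.36 for *Il27ra*, 3.52 for *Il2rg*, 3.19 for *Il10ra*, 2.98 for *Il2rb*, 2.73 for *Il18rap*, 2.07 for *Il18r1*, 1.77 for *Il17ra* and 1.45 for *Il2ra*. It was 1.10 for *Il13ra1*, 0.997 for *Il10rb*, 0.59 for *Il4ra* and 0.46 for *Il11ra1*. Among ligands it was 2.55 for *Il16*, 1.42 for *Il33*, 1.20 for *Il7*, 1.04 for *Il18* and -1.02 for *Il34*, and it was 4.88 for *Il4i1*. Negative values were also found for *Il20rb* (-1.83), *Il17rd* (-1.36), *Il1r1* (-0.90) and *Il17rc* (-0.68). Over 33 alternative fits the call was lost in 15 for *Il18*, 12 for *Il11ra1*, 11 for *Il1r1*, 10 for *Il33*, 9 for *Il7*, 5 for *Il4ra* and 1 each for *Il13ra1* and *Il17rc*. Lymph node transcripts in the ND-fed iWAT libraries cannot be told apart from diet in these values. *Il9r* averaged under 1 CPM in every eWAT group, so a depot difference was built into its passing the filter.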

How the results depend on the processing

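The numbers of members called higher and lower by diet in eWAT, 17 and 9, were 13 and 3 with the series as a term and 4 and 2 in series 2 alone, and 15 to 18 and 7 to 9 when each library was left out. By genotype in eWAT, 1 higher and 11 lower became 0 and 6 at an adjusted p under 0.05, and the count higher was 2 with no filter or without the libraries high in epididymis markers. Leaving out each library gave 0 to 2 and 6 to 12. By diet in iWAT, 9 higher and 20 lower became 4 higher with the series as a term, 2 higher in series 2 alone and 11 lower with 1 CPM in every library. Leaving out each library gave 4 to 10 and 15 to 22. By genotype in iWAT, none called became 3 higher and 4 lower with DESeq2 and 3 higher and 2 lower in series 1 alone, and 0 to 2 in each direction without each library. Between depots on ND, 7 higher became 4 at 0.05 and 17 lower became 9 with 1 CPM in every library, and 3 to 7 and 14 to 18 without each library. The depot difference in the diet effect was called for 14 to 21 members higher and 4 to 5 lower, and that in the genotype effect for 0 higher and 0 to 2 lower. Values that turned sign were eWAT diet *Il33* at -0.083 and *Il1rl1* at -0.21 in series 2 alone, and eWAT genotype *Il33* at 0.19 without HFD-fed wild type 1 (range without each library -0.36 to 0.19) and *Il17d* at -0.092 without *Acod1*-/- 2 (range -0.092 to 0.31). The causes were not tested. Of 3564 values of single members under an alternative, 3252 kept their direction and side of the threshold, 287 lost and 21 gained a call. Within a depot, replicate numbers did not pair samples, since deviations of same-numbered libraries correlated from -0.249 to 0.303. Between depots these correlations were 0.0596 to 0.257 on ND, -0.107 to 0.597 in HFD-fed wild type and -0.15 to 0.163 in *Acod1*-/- mice. Whether same-numbered samples of both depots came from 1 mouse is not given in the labels, and the depot fits treat libraries as independent. With the replicate block, the counts were 16 and 8 (eWAT diet), 1 and 10 (eWAT genotype), 6 and 16 (iWAT diet), 0 and 0 (iWAT genotype), 7 and 17 (depots on ND), and 21 and 6 and 0 and 0 for the depot differences in diet and genotype effects. With series 2 alone 1 HFD-fed wild type library a depot remained, and members under about 1 CPM are limited by depth.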
